A study of Homo sapiens with 2 samples.

Results

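The tetraspanins and the L6 proteins are small membrane proteins that cross the plasma membrane several times, and their genes were compared between a SOX4 knockout line and its parental line. The genes were taken by symbol from the platform annotation: every TSPAN gene with a number, every TM4SF gene with a number, and CD9, CD37, CD53, CD63, CD81, CD82, CD151, UPK1A and UPK1B. These were 37 of the 33616 genes measured under a single symbol. Each is represented by the transcript cluster, the array's unit for 1 locus, with the highest mean of both arrays.

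The cells were Hep3B, an established human hepatocellular carcinoma line, and both lines came from it. The SOX4-/- cells had been made with CRISPR/Cas9 and were grown in the parental medium with puromycin at 1 ug/ml, while the growth protocol names no puromycin for the parental cells. Total RNA was taken at 80% confluence and 1 array was hybridised per line. The labels do not say whether the knockout line is a single clone, so genotype, clone, puromycin and array cannot be told apart.

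With 1 array per line there is no replicate check and no test, and "higher" and "lower" describe these 2 arrays. Values are the log2 signals as deposited, differences are knockout minus parental, and 2-fold is 1 on the log2 scale. A gene counts as above the level filter when its higher value exceeds 4.78, the median of such values across the genes. No detection calls were used here, so the filter is not a limit of detection. Signals of different genes come from different probes, so no level is ranked between genes. SOX4 itself stood at 12.44 against 13.14 (the knockout value is given first throughout), a difference of -0.70, and the probes cannot show whether the transcript still codes for the protein. Of the hepatocyte markers, 7 of 8 were measured and all 7 lay above the filter in both arrays. Of those, ALB stood at 18.84 and 18.87, and AFP at 9.73 and 15.50. AFP and APOA1, the latter at -1.17, were 2-fold lower, 2 of 7 (28.6%) against 4.27% of protein-coding genes above the filter. In all, 6 of the 7 had a negative difference and 1, SERPINA1 at 0.35, a positive one.

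Tetraspanins organise other membrane proteins, such as integrins, proteases and immunoglobulin-domain proteins, into patches of the membrane and take part in adhesion, cell fusion and the release of vesicles. A group called TspanC8 escorts the protease ADAM10 to the cell surface. The L6 proteins, encoded by TM4SF genes, resemble tetraspanins in layout but form a separate family. In the liver, CD81 is known as a receptor of hepatitis C virus, and TM4SF5 and CD151 have been studied in hepatocellular carcinoma.

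Promoter sequences are shown for the genes of largest difference, TM4SF1 and UPK1B, and for TM4SF4 and TM4SF18, which flank TM4SF1 on chromosome 3. Each is the 250 bases before the RefSeq gene start in GRCh38.p14, written 5′ to 3′ on the gene's strand. TM4SF1 is at chr3:149377650-149377899 on the minus strand, UPK1B at chr3:119173348-119173597 on the plus strand, TM4SF4 at chr3:149474447-149474696 on the plus strand and TM4SF18 at chr3:149333637-149333886 on the minus strand. Capitals mark matches on either strand to the SOX cores ACAAAG and ACAATG, the AP-1 site TGANTCA, the antioxidant response core TGACNNNGC, the TEAD site GGAATG and the TATA box TATAAA.
TM4SF1: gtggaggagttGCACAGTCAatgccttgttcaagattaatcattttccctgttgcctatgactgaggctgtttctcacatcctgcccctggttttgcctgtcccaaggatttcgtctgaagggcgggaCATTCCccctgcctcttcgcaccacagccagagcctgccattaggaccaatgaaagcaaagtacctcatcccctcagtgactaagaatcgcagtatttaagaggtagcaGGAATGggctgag
UPK1B: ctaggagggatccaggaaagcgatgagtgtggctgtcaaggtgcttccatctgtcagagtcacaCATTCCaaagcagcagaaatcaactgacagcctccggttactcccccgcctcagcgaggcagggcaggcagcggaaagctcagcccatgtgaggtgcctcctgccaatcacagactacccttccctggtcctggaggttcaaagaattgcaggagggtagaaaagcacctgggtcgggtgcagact
TM4SF4: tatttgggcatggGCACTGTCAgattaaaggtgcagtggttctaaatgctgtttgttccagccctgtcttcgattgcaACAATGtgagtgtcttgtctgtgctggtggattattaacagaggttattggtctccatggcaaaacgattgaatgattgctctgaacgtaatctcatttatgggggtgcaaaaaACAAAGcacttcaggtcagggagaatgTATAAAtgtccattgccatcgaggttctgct
TM4SF18: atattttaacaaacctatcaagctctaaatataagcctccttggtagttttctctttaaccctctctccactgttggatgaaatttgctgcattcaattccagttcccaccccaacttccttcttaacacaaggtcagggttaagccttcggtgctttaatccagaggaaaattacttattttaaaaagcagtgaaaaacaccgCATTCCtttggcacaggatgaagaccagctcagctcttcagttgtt

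The TEAD letters lie in TM4SF1 at 122 and 13 bases before the start, in UPK1B at 186 and in TM4SF18 at 46. TM4SF1 and TM4SF4 each hold the antioxidant core, at 239 and 237 bases before the start. TM4SF4 alone of these 4 holds SOX cores, ACAATG at 172 and ACAAAG at 58 bases before the start, and a TATA box at 31. Thus TM4SF18, which lay below the level filter in both arrays, carries the TEAD letters as TM4SF1 and UPK1B do. A match of letters is no evidence of binding.

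Promoters of 29 of the 37 genes were matched. The TEAD letters occurred in 7 of the 29 (24.1%), against 10.1% of 15843 promoters of protein-coding genes. The SOX core ACAAAG occurred in 6 (20.7%) against 10.9%, ACAATG in 3 (10.3%) against 6.70%, the antioxidant core in 4 (13.8%) against 11.5%, the AP-1 site in 3 (10.3%) against 5.04% and the TATA box in 2 (6.90%) against 9.23%. SOX cores were in TM4SF4 and TSPAN8, both higher in the knockout array, in TSPAN6, which was lower, in TSPAN13, and in TSPAN1, TSPAN11, TSPAN19 and UPK1A, which lay below the filter. The matches cover genes that were higher, lower and little different. The 7 genes at least 2-fold higher that have a promoter here held a median of 4 CpG dinucleotides per promoter, with a range from 1 in TSPAN8 to 37 in TSPAN4. The 9 others above the filter had a median of 19, with a range from 3 to 45, the 13 members below the filter had a median of 4, and all protein-coding promoters had a median of 17. A median of 4 was thus also that of the members below the filter. CD151, CD81 and TSPAN7, also 2-fold higher, had no promoter matched, so the median of the higher genes leaves them out.

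Of the 37 genes, 22 lay above the level filter and 15 below it. In the knockout line, 10 genes were 2-fold higher or more, and 1 was 2-fold lower. Over all 16808 genes above the filter, 6.5% were 2-fold higher and 3.64% 2-fold lower, and over the 11190 protein-coding ones, 8.28% and 4.27%. The tetraspanin and L6 genes together thus held 10 of 22 (45.5%) where the background was 8.28%, and 1 of 22 where it was 4.27%. Without the L6 genes, 7 of 19 (36.8%) were 2-fold higher and 1 lower. All 3 L6 genes above the filter were 2-fold higher. TSPAN8 passed the filter only through the array in which it was high. At 1.5-fold, 14 genes were higher and 3 lower, against 18.6% and 11.6% of protein-coding genes. At 4-fold, 4 genes were higher and none lower, against 1.8% and 0.617% of protein-coding genes. The median difference over all 37 genes was 0.12, against 0.00 for all genes, and the 15 genes below the filter had a median of -0.12. Over the 22 genes above the filter the median was 0.81, with 16 above 0 and 6 below, against 0.06 for protein-coding genes above the filter. Without the L6 genes that median was 0.62.

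**Figure D1:**
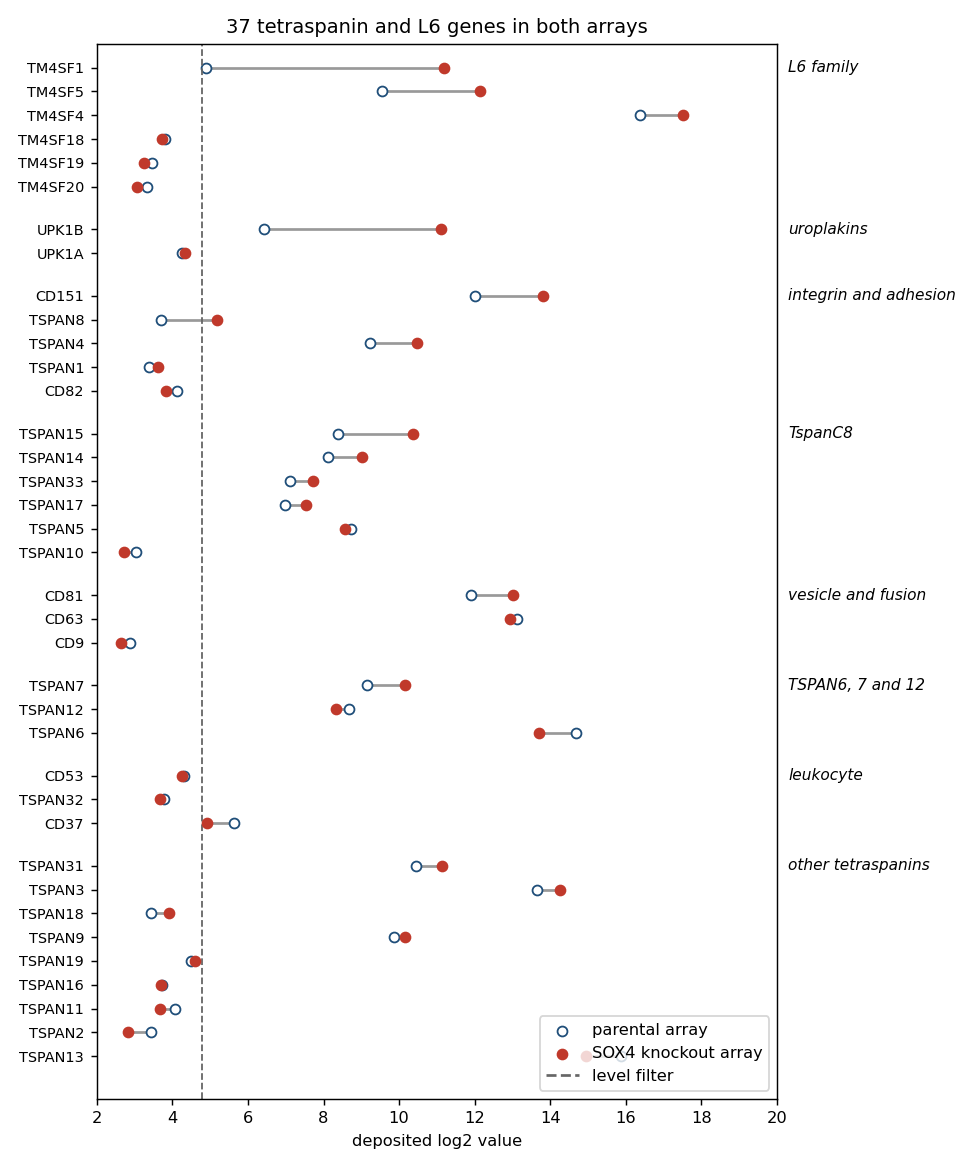
Deposited log2 value of each of the 37 genes in the parental array (open circles) and the SOX4 knockout array (filled circles), grouped by role, with the level filter at 4.78 as a dashed line. TM4SF1 and UPK1B have the longest distance between their circles, and 15 genes lie left of the line in both arrays.

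**Figure D2:**
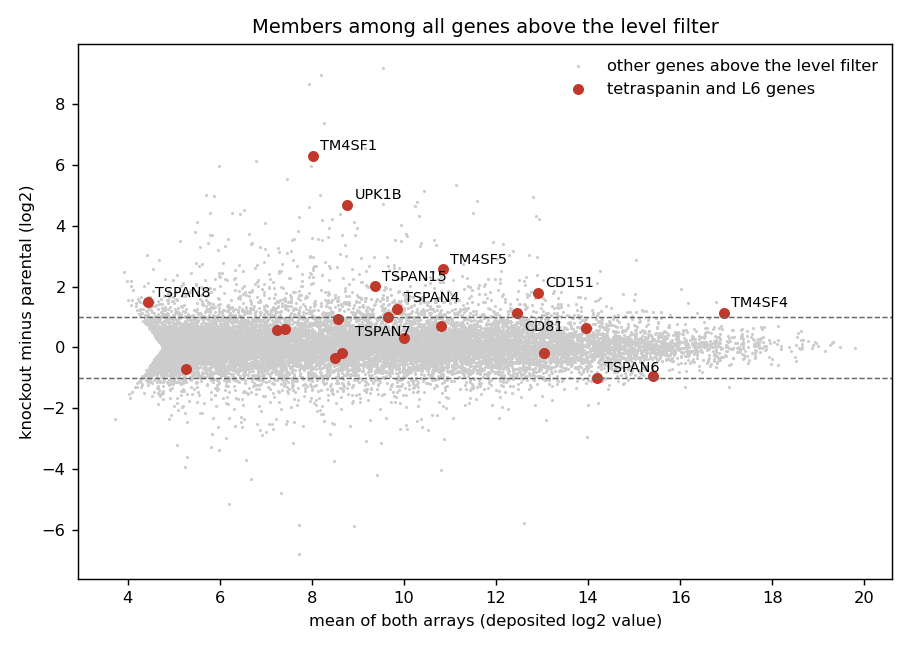
Knockout minus parental difference (log2) against the mean of both arrays (log2) for the genes above the level filter. The 22 tetraspanin and L6 genes among them are filled, and dashed lines mark 2-fold. The 10 labelled genes above the upper line are spread over the range of mean values, and TSPAN6 lies at the lower line.

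The L6 family held the largest difference of all. TM4SF1, a surface protein of tumour and endothelial cells that has been studied in cell motility, had a value of 11.18 in knockout and 4.88 in parental cells. Its difference of 6.30, or 78.7-fold, was exceeded by 5 of the 16808 genes above the filter. The parental value was close to the filter of 4.78, so the fold rests on a low parental signal.

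TM4SF5, which has been studied in liver fibrosis and cancer, stood at 12.13 against 9.56. The difference was 2.57, or 5.95-fold, with both values well above the filter. TM4SF4, a protein of liver and intestine, stood at 17.52 against 16.38, a difference of 1.14 or 2.20-fold. Both TM4SF4 values exceed 16, the number of bits of a scanner. Its fold, like every fold given here, holds on the deposited scale only. TM4SF18, TM4SF19 and TM4SF20 lay below the filter in both arrays, with differences of -0.08, -0.19 and -0.24. The 3 L6 genes above the filter were therefore at least 2-fold higher, and the other 3 were not above it in either array.

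TM4SF18, TM4SF1 and TM4SF4 are consecutive among the measured protein-coding genes of chromosome 3, and they differed from one another. TM4SF18 had 2 transcript clusters, with differences of -0.08 and -0.48, both below the filter. The antisense transcript TM4SF1-AS1 also lay below it, at 3.85 against 3.67. On either side of the 3 genes stood CP, which codes for the copper carrier ceruloplasmin, 1.68 higher, and WWTR1, which codes for the TEAD coactivator TAZ, at 7.24 against 6.50, 0.74 higher. Over the 20 measured protein-coding genes nearest to TM4SF1, 10 on each side, the median difference was -0.01, and 2 were 2-fold higher and 1 lower, the transcription factor gene ZIC1 at -1.19. Of the genes around TM4SF1, CP and TM4SF4 were thus also past 2-fold, by smaller amounts. Among the 20 neighbours 14 lay above the filter. The shares of protein-coding genes above it were 8.28% 2-fold higher and 4.27% lower.

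**Figure D3:**
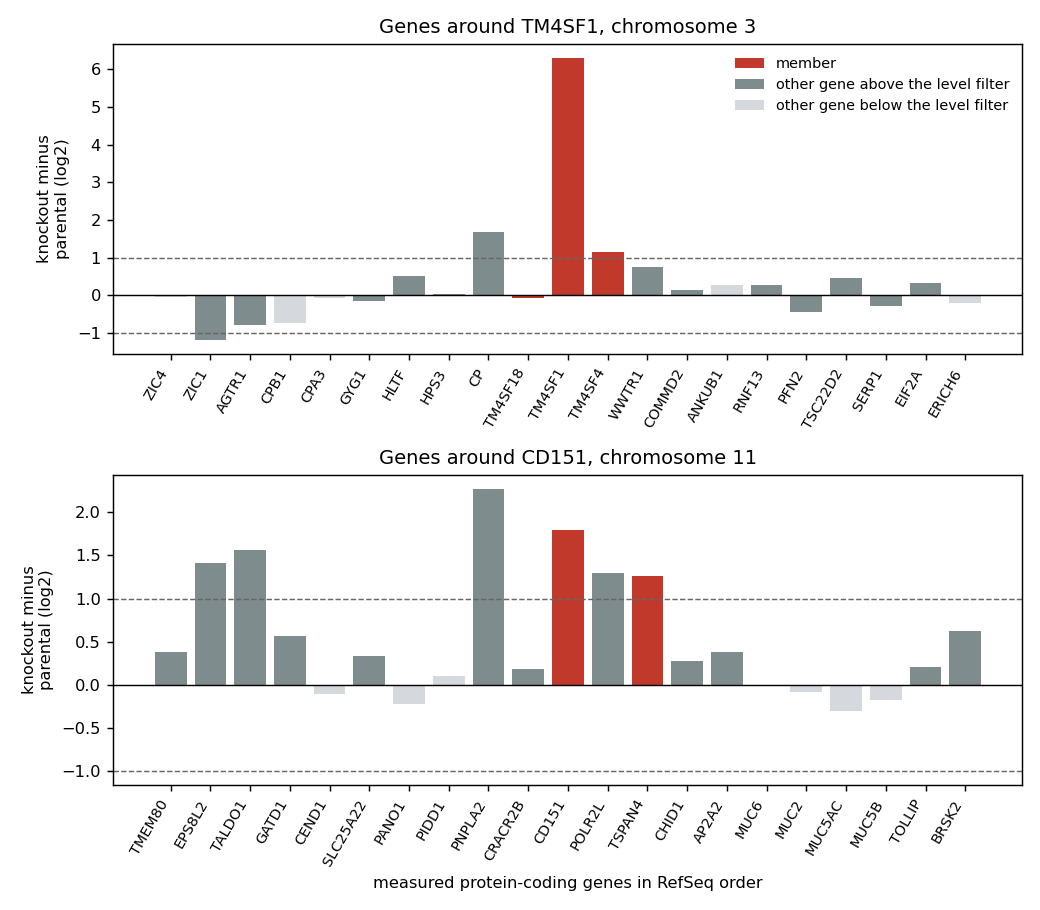
Knockout minus parental difference (log2) of measured protein-coding genes in RefSeq order around TM4SF1 (upper) and CD151 (lower). Separate shades show tetraspanin and L6 genes, other genes above the level filter and other genes below it. Dashed lines mark 2-fold. In the upper run TM4SF1, TM4SF4 and CP lie above the upper line, with TM4SF1 at 6.30 and the others under 2, and in the lower run PNPLA2, CD151, POLR2L and TSPAN4 lie near each other above the upper line.

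Uroplakins are proteins of the plaques that cover the urothelium of the bladder, and of them UPK1A and UPK1B are tetraspanins. UPK1B had a value of 11.11 in knockout and 6.43 in parental cells. Its difference of 4.69, or 25.7-fold, was the largest of a true tetraspanin, and 19 genes above the filter were higher by more. Its relative UPK1A lay below the filter, at 4.34 against 4.26. UPK1B pairs with UPK3A in the plaque, and UPK1A with UPK2; these partners were looked up after the UPK1B value was seen. UPK3A stood at 3.73 against 4.38, UPK2 at 3.54 against 3.96 and UPK3B at 2.60 against 2.79, all below the filter. UPK1B was therefore high without the other uroplakins measured. Its neighbour B4GALT4, a galactosyltransferase gene, was 1.62 higher, and TEX55 on the other side lay below the filter. The 20 genes nearest to UPK1B had a median of 0.03, with only 10 above the filter. Of those, B4GALT4 was 2-fold higher and 1 was 2-fold lower, LSAMP at -1.03. The shares of protein-coding genes above the filter were 8.28% higher and 4.27% lower.

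Of the tetraspanins that bind integrins or act in adhesion, CD151 and TSPAN4 lay above the filter in both arrays, and both were 2-fold higher. CD151, which holds laminin-binding integrins in the membrane, stood at 13.82 against 12.02, a difference of 1.80 or 3.48-fold. TSPAN4, which binds integrins and is abundant in migrasomes, stood at 10.48 against 9.22, a difference of 1.26. TSPAN8, a tetraspanin of gastrointestinal and liver tumours, stood at 5.19 against 3.70, a difference of 1.49, and passed the filter only through the knockout array. CD82, known as a metastasis suppressor, lay below the filter at 3.84 against 4.11, and so did TSPAN1 at 3.63 against 3.37.

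CD151 and TSPAN4 lie close together on chromosome 11, with only POLR2L, a subunit gene of RNA polymerases, between them among measured protein-coding genes. POLR2L was 1.30 higher. Of the 20 genes nearest to CD151, 13 lay above the filter, 5 of them were 2-fold higher and none lower, and the median difference was 0.30. The shares of protein-coding genes above the filter were 8.28% higher and 4.27% lower. The 5 near CD151 were PNPLA2, a triglyceride lipase gene, at 2.27, TALDO1, of the pentose phosphate pathway, at 1.56, EPS8L2 at 1.41, POLR2L and TSPAN4. TSPAN4 is itself a member and is already counted among the 22. CD81, further along the same chromosome, had 20 neighbours with a median of 0.02, of which only 8 lay above the filter. Of these, 2 were 2-fold higher, SLC67A1 at 3.61 and PHLDA2 at 1.62, and 1 lower, CDKN1C at -2.36. Copy number was not measured here.

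For the other members past 2-fold the nearest genes are given in turn. Next to CD151 and TSPAN4 on their outer sides were CRACR2B at 0.19 and CHID1 at 0.27. TSSC4, after CD81, stood at 0.26, ZMYND15, before TM4SF5, at -0.34, LGR5, a receptor of R-spondins after TSPAN8, at -0.06 and MID1IP1, after TSPAN7, at 0.37. The neighbours C11orf21 of CD81, VMO1 of TM4SF5, PTPRR of TSPAN8, OTC of TSPAN7 and both TACR2 and NEUROG3 of TSPAN15 lay below the filter. Further out, the 20 genes nearest to TSPAN8 held 2 that were 2-fold higher, PTPRB at 3.48 and TRHDE at 1.04. Those nearest to TSPAN15 held 1, HKDC1 at 1.60, and those nearest to TM4SF5 held 1, MED11 at 1.46. None near these 3 members was 2-fold lower. Above the filter were 15 of the 20 genes near TSPAN8, 15 near TSPAN15 and 13 near TM4SF5. The shares of protein-coding genes above the filter were 8.28% 2-fold higher and 4.27% lower. TM4SF19, itself below the filter, lay between DYNLT2B at -0.50 and UBXN7 at -0.40, and TM4SF20 between MFF at 0.06 and SLC19A3 at 0.79.

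The integrins themselves were compared as partners. Among the 6 integrin subunits that passed the filter, 3 (50%) were 2-fold higher and none lower. Of protein-coding genes above the filter, 8.28% were 2-fold higher and 4.27% lower. ITGA2, the collagen-binding subunit, stood at 12.43 against 10.45, and ITGA3, a laminin-binding partner of CD151, at 5.06 against 3.19. The subunits of the laminin receptor α6β4, which also binds CD151, were little different, with ITGA6 at 11.16 against 11.01 and ITGB4 at 6.49 against 6.62. The parental value of ITGA3 lay below the filter, so ITGA3 passed only through the array in which it was high.

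The TspanC8 tetraspanins steer ADAM10, a protease that sheds the outer parts of membrane proteins, toward different substrates. TSPAN15, which promotes shedding of N-cadherin, stood at 10.38 against 8.37, a difference of 2.01 or 4.02-fold. TSPAN14 stood at 9.03 against 8.11, a difference of 0.92, just under 2-fold. TSPAN33 was at 7.71 against 7.11 and TSPAN17 at 7.53 against 6.97, differences of 0.61 and 0.56, while TSPAN5 was at 8.57 against 8.74. TSPAN10 lay below the filter. Among the 5 measured above it, 4 had a higher value in the knockout array, and 1 (20%) passed 2-fold. Over protein-coding genes above the filter, 6136 of 11190 had a higher value and 8.28% were 2-fold higher. With only 5 genes these counts are not read as a result about the group.

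ADAM10 itself was little different, at 15.16 against 15.06, and its relative ADAM17 stood at -0.37. Of 12 genes above the filter in the list of ADAM10, ADAM17 and their substrates, 3 (25%) were 2-fold higher and none lower. The shares of protein-coding genes above the filter were 8.28% and 4.27%. CD44, the hyaluronan receptor, was at 9.03 against 4.95, and PRNP, the prion protein gene, at 12.51 against 10.23. EFNA5, an ephrin, was 1.37 higher and was picked after its value was seen. The lowest were APP, the amyloid precursor gene, at -0.53 and CDH1, the E-cadherin gene, at -0.50. N-cadherin, CDH2, stood at -0.12. The CD44 difference of 4.07 became 2.25 when all its transcript clusters were averaged.

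CD9, CD63 and CD81 are used as markers of extracellular vesicles, and they differed from one another. CD81 stood at 13.02 against 11.91, a difference of 1.12 or 2.17-fold. CD63, the tetraspanin of late endosomes, stood at 12.94 against 13.13, a difference of -0.18. CD9, which acts in the fusion of egg and sperm and in adhesion, was below the filter in both arrays, at 2.63 against 2.87. Its promoter was among those matched and held none of the motifs. CD81 was thus higher while CD63 was little different.

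Genes of the machinery that forms and releases exosomes passed the filter in 15 cases, of which 2 (13.3%) were 2-fold higher and none lower. Of protein-coding genes above the filter, 8.28% were 2-fold higher and 4.27% lower, so in a list this small the counts lie near the background. The median was 0.33, against 0.06 for protein-coding genes above the filter. RAB27B, a GTPase that docks vesicles at the plasma membrane, stood at 9.11 against 7.57, and SDC4, a syndecan, at 15.32 against 14.27. The lowest were STAM, a sorting adaptor, at -0.48 and RAB11A, of recycling endosomes, at -0.11. RAB27A, the close relative of RAB27B, stood at 9.62 against 9.58. Other membrane partners of tetraspanins had 2 of 17 (11.8%) higher and none lower, also near that background. The 2 were CD44 and EGFR, the latter at 12.89 against 11.81. The lowest of that list were the fatty acid receptor gene CD36 at -0.81 and CDH1. The immunoglobulin-domain partners of CD9 and CD81, IGSF8 and PTGFRN, were at 0.85 and 0.54, and CLDN1, which acts with CD81 as a hepatitis C virus receptor, at 0.48. These 3 were picked after their values were seen.

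**Figure D4:**
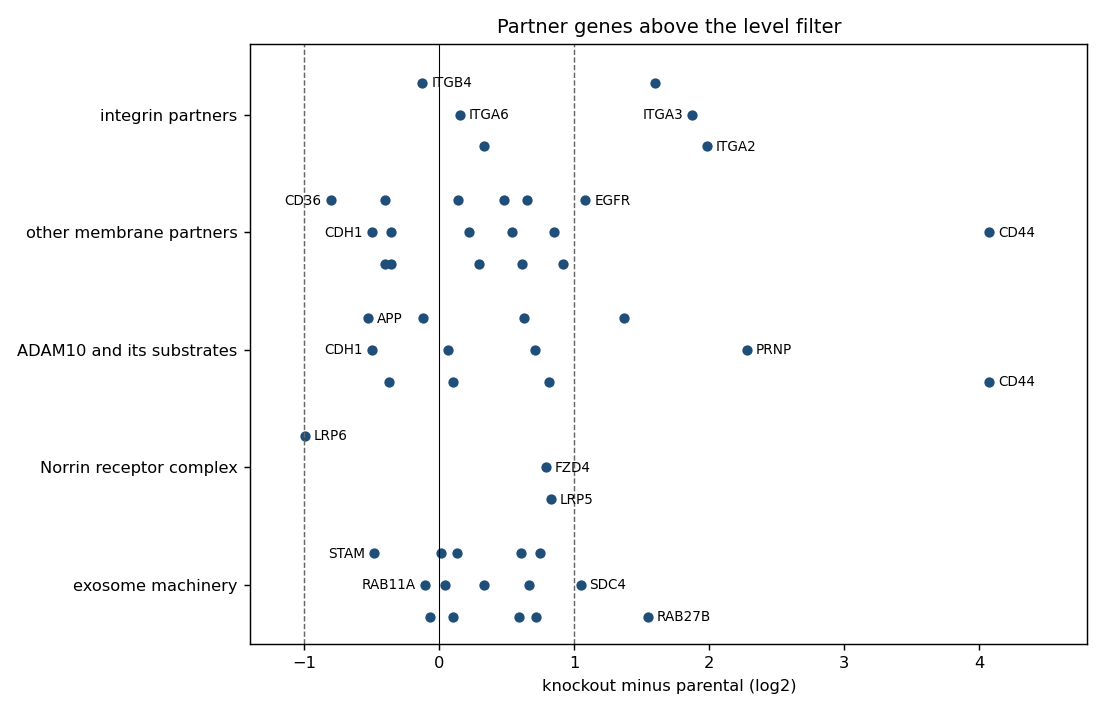
Knockout minus parental difference (log2) of partner genes above the level filter, 1 point per gene and list, with dashed lines at 2-fold and the highest and lowest genes of each list named. CD44, in 2 lists, stands farthest to the right, and no partner lies beyond 2-fold on the lower side.

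TSPAN6, TSPAN7 and TSPAN12 went different ways. TSPAN6, which has been linked to the sorting of proteins into vesicles, stood at 13.69 against 14.69. Its difference of -1.001 made it the single member 2-fold lower, just past the threshold, and centring the arrays moved it to -0.985. TSPAN7, known for a role in neurons and in X-linked intellectual disability, stood at 10.15 against 9.14, a difference of 1.01, which fell to 0.95 after quantile normalization and to 0.96 after removal of the level trend. Both genes lie on the X chromosome. Beside TSPAN6, SRPX2, a secreted protein gene, was 2.03 higher and TNMD lay below the filter. The calls of TSPAN6 and TSPAN7 are therefore at the threshold.

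TSPAN12, a component of the Norrin receptor complex in retinal vessels, stood at 8.34 against 8.67, a difference of -0.33. The receptor FZD4 was at 8.60 against 7.81 and LRP5 at 13.49 against 12.66, while LRP6 stood at 11.56 against 12.55. The ligand gene NDP lay below the filter. No gene of the complex was 2-fold apart, and LRP6 passed 2-fold downward after quantile normalization, at -1.05, and after removal of the level trend, at -1.03, but stood at -0.65 when all its transcript clusters were averaged.

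Of the remaining tetraspanins, 4 lay above the filter and none was 2-fold apart. TSPAN13, which has been studied with voltage-gated calcium channels, stood at 14.94 against 15.88, a difference of -0.93. TSPAN31, a gene amplified in sarcomas, was at 11.15 against 10.45, TSPAN3 at 14.26 against 13.64 and TSPAN9 at 10.16 against 9.85, differences of 0.70, 0.62 and 0.31. TSPAN2, TSPAN11, TSPAN16, TSPAN18 and TSPAN19 lay below the filter, with differences from -0.62 for TSPAN2 to 0.48 for TSPAN18.

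CD37, CD53 and TSPAN32 are tetraspanins of leukocytes. CD37 stood at 4.91 against 5.63, a difference of -0.72, and CD53, with 2 transcript clusters, and TSPAN32 lay below the filter in both arrays. Of 7 leukocyte markers, 3 lay above the filter, and the linear signals of all 7 summed to 3908 in knockout and 954 in parental cells. LYZ, the lysozyme gene, stood at 11.87 against 9.62 and accounts for most of the higher sum. PTPRC, which codes for the pan-leukocyte antigen CD45, lay below the filter at 4.72 against 4.76. None of the 5 endothelial markers lay above the filter. Their summed linear signals were 63.9 and 68.9. Of 5 fibroblast and stellate markers measured, 4 lay above it, and the sums over all 5 were 6980 and 740. LUM, the lumican gene, was 4.79 higher and alone accounts for the higher sum. COL1A1 stood at -0.45, COL1A2 at -0.16, PDGFRB at -0.13 and DCN was below the filter. The part of other cell types in these results was not tested.

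Proteins reported to act with L6 proteins were looked up after the L6 values were seen. Of 8 such genes above the filter, CD44 and the fibronectin receptor subunit ITGA5, at 10.91 against 9.32, were 2-fold higher. None was 2-fold lower. These 2 are 25% of the 8, and the shares of protein-coding genes above the filter were 8.28% higher and 4.27% lower. Both are counted in earlier lists too, CD44 with the ADAM10 substrates and the other membrane partners, and ITGA5 with the integrins. The shares of these lists are therefore not independent. SDCBP2, a syntenin, stood at 4.18 against 4.97 and CDKN1B, a cell cycle inhibitor, at 9.46 against 10.10. The kinase gene PTK2 was little different, at -0.08. PXN, the paxillin gene, was 0.68 higher. The members went both ways, with 3 of the 8 above 0 and 5 below and a median of -0.20.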

How the data were processed

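RNA of 2 Hep3B samples, grouped by their genotype labels, was hybridised to 1 array each. The authors deposited log2 values per transcript cluster. The submitters' processing notes name RMA and Transcriptome Analysis Console, and their versions and the build are not stated here. The log base is not labelled. Values reach 19.80 and 19.82, and 870 and 838 clusters exceed 16, so the scale may have been altered after RMA, and folds hold on the deposited scale. The labels name the Human Transcriptome Array 2.0, and which array design the cluster identifiers belong to is not settled here. The number of arrays limits the precision.

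Genes were named from the platform annotation, which gives 1 symbol to 36176 of 135750 clusters and several to 1119; no cluster with several named a member. RefSeq GRCh38.p14 matched all 37 members by Entrez identifier and served for chromosomes, gene order and promoters. No test was run. Every member above the level filter of 4.78 is named, with SOX4, the 2 highest and 2 lowest genes above the filter of each partner list, and the nearest measured protein-coding genes on each side of a member past 2-fold. Runs of 20 neighbours, motifs, marker values and a few further genes were added later. The members and lists were chosen with earlier results of these data known. The counting was tested on simulated data. Alternatives were quantile normalization, centring, removal of a lowess trend (fraction 0.3), averaging clusters, other filters and other thresholds. Python 3.11.15, pandas 2.3.3, numpy 2.4.6 and statsmodels 0.14.6 were used.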

Additional observations from a re-analysis of the deposited data

How the results depend on the processing

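The count of members at least 2-fold higher was 10, and it was 9 after quantile normalization, after removal of the level trend and with the filter at the 75th percentile, 14 at 1.5-fold and 4 at 4-fold. The count of members 2-fold lower was 1, and it was 0 with centred arrays, 3 at 1.5-fold and 0 at 4-fold. Those counts move by construction of the threshold, and the centred count through TSPAN6 alone. The median difference over all 37 members, 0.12, was between 0.13 and 0.15 under quantile normalization, centring and removal of the trend. This median is taken without a filter, so dropping the filter could not move it. Averaging of clusters changed only the 2 members with several clusters and left the median at 0.12. It was 0.97 over the 18 members above the 75th percentile, and the mean over all members was 0.60. The summary thus depends on which members enter and how they are averaged. Of the 66 genes followed, none past 2-fold changed sign under the scalings or with clusters averaged. The scalings moved each of the 66 by less than 0.302, so they could not turn the sign of a gene past 2-fold. RAB11A, which was not past 2-fold, went from -0.11 to 0.04 with clusters averaged. No paired analysis was possible because each genotype has 1 array. Signal over background could not be judged, since detection calls were not used here, and that limits TM4SF1, TSPAN8 and CD37 most.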
